A study of Mus musculus with 31 samples.

Results

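Rad21, the kleisin subunit that closes the cohesin ring, was mapped by chromatin immunoprecipitation and sequencing in splenic mature B cells before and after activation. The 6 libraries described here, of 31 samples in the series of which 26 came with a peak list, were chosen by their titles. There were 3 libraries of cells stimulated for 48 h with anti-CD40 antibody and IL-4 (aCD40/IL4) and 3 libraries of cells without stimulation. All 6 came from primary AID-deficient C57BL/6 splenic B cells, so the unstimulated cells also lacked AID, the deaminase that starts class switching, and were immunoprecipitated with the same Rad21 antibody. Whether the replicates came from different mice or cultures is not in the labels, so the p-values speak only of how these libraries vary, and that variation may be technical.

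Cohesin extrudes chromatin loops and holds them at sites bound by CTCF, a zinc-finger protein that blocks its movement, and NIPBL is the factor that loads cohesin and drives its movement. Cohesin is also found at active enhancers and promoters. CD40 ligation and IL-4 stand in for help from T cells and make resting B cells divide and switch the class of their antibody, and the series as a whole asks what part loop extrusion plays in that switch.

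Each list gives peaks on mm9 with no read counts, so sequencing depth is unknown. The lists were uneven, with 149409, 1166191 and 1236385 peaks in the stimulated libraries and 292078, 1177389 and 152152 in the unstimulated ones. To set them on 1 scale, the 20000 peaks with the highest -log10 p were kept from each list, and they covered 7.04, 15.1 and 9.75 Mb in stimulated and 15.5, 15.2 and 8.97 Mb in unstimulated libraries. Stimulated replicate 1 and unstimulated replicate 3 had the fewest peaks past a -log10 q of 5, 12086 and 14104, so that their 20000 top peaks include weaker ones than the others do. The difference in covered length did not pass the test (exact two-sided permutation p = 0.5; with 3 against 3 libraries p cannot go below 0.1). The peak names show 1 control for all stimulated lists and another for all unstimulated lists, so the control and the stimulation cannot be told apart. Which genes lie beside the sites was not analysed here, since no annotation of mm9 was used, and positions are given in its place.

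Merging the top peaks of the 6 libraries gave 36418 Rad21 sites. Of these, 985 were gained, meaning that all 3 stimulated libraries and none of the unstimulated ones had a top peak there, which is 2.7% of the sites. The reverse held at 1344 lost sites, 3.69% of the sites, and 10803 sites, 29.7%, were shared by all 6 libraries. These classes are a description with no test. The median width was 582 bp at gained sites and 1243 bp at lost sites, against 1090 bp at shared sites. Only 5 gained sites were over 2000 bp wide, against 303 of the lost sites (22.5%) and 962 of the shared sites (8.9%). Over all 36418 sites the median was 619 bp, near that of gained sites, and 4.65% were over 2000 bp wide. Top peaks this wide numbered 34, 422 and 106 in stimulated and 824, 753 and 146 in unstimulated libraries (exact permutation p = 0.2).

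The single peaks of a library, whose own widths merging does not change, were also narrower at gained sites and wider at lost sites than at shared sites. The classes that pick these peaks still come from merged sites. Peaks at gained sites had median widths of 264, 512 and 354 bp in stimulated replicates 1 to 3, each below the 369, 804 and 564 bp at shared sites in the same libraries. At sites in none of the 3 classes the medians were lower still in these libraries, 229, 484 and 227 bp. Narrow peaks were therefore not particular to gained sites. Peaks at lost sites had median widths of 1048, 951 and 556 bp in unstimulated replicates 1 to 3, each above the 671, 721 and 363 bp at shared sites. At sites in none of the 3 classes they were 466, 430 and 303 bp in the unstimulated libraries. Gained and lost sites were of moderate strength: their median ranks lay between 12106 and 12523 for gained sites in the stimulated libraries and between 12306 and 14622 for lost sites in the unstimulated libraries, whereas shared sites had median ranks of 5578 to 5984.

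The group without a top peak usually still had a deposited peak of lower rank. When every deposited peak was considered, 90.8%, 100% and 99.3% of the lost sites overlapped some peak in stimulated replicates 1 to 3. Of the gained sites, 97.9%, 97.6% and 77.3% overlapped some peak in unstimulated replicates 1 to 3. Only 7 gained and 0 lost sites had no deposited peak at all in the other group. Asking that the other group have no peak among its 40000 best, a limit chosen after the data were seen, left 230 gained sites with a median width of 498 bp and 345 lost sites with a median width of 1310 bp.

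Lost sites lay closer to one another than gained sites did. The nearest other lost site was within 20 kb for 307 lost sites (22.8%), with a median distance of 100 kb, and the nearest other gained site was within 20 kb for 57 gained sites (5.79%), with a median distance of 528 kb. There are fewer gained than lost sites, which alone lengthens such distances. Among the more numerous shared sites 34.8% lay within 20 kb of another, with a median distance of 34.6 kb. Over all sites these values were 63% and 12.9 kb. By chromosome, the gained share of sites ran from 0.938% on the X chromosome to 3.73% on chromosome 9, and the lost share from 1.59% on the X chromosome to 4.32% on chromosome 10, leaving out the 12 sites on Y. The share of all top peaks on chromosome 19 was 3%, 3.17% and 2.87% in stimulated and 3.57%, 3.4% and 3.43% in unstimulated libraries. The groups did not overlap for 7 chromosomes, with a higher share in stimulated libraries for chromosomes 2, 4, 9 and 14 and a lower one for chromosomes 5, 10 and 19. None passed the test (exact permutation p = 0.1 and adjusted p = 0.429 for each, over 30 measures of the lists).

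**Figure D1:**
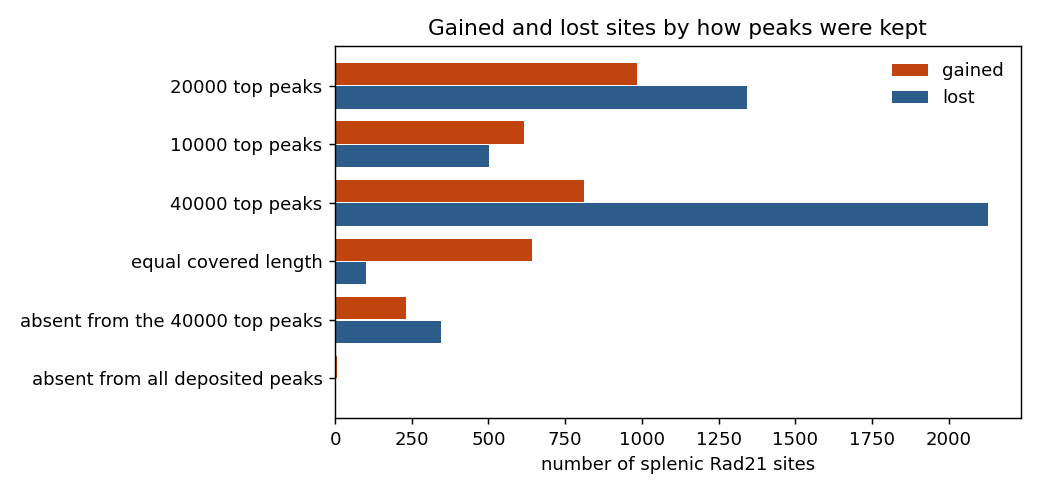
Number of gained and lost splenic Rad21 sites (x axis) under each way of keeping peaks (y axis), gained above lost. With 20000 top peaks there were 985 gained and 1344 lost sites, and the balance turned with the setting, with 642 gained and 102 lost at equal covered length.

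Which class was larger changed with the way peaks were kept. With 10000 top peaks 615 sites were gained and 503 lost, with 40000 top peaks 812 were gained and 2128 lost, and with the same covered length of 7.04 Mb in every library 642 were gained and 102 lost. No direction is therefore given for the number of sites.

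The strongest gained sites were taken as those whose weakest peak in the stimulated libraries had the best rank in its own list. Ranks and fold enrichments belong to each peak in its own list, and the lists differ in length, so they describe the peaks and do not measure a change. First was the 425 bp site chr4:136631862-136632286, whose peaks ranked 1060, 2018 and 2389 in stimulated and 26533, 50322 and 50459 in unstimulated replicates 1 to 3. The fold enrichment that the authors' peak caller gave was 12.2, 22.4 and 14.6 in the stimulated lists and 6.11, 5.74 and 3.72 in the unstimulated lists. The peak ranked high in each stimulated list and was still called, far lower, in each unstimulated one. Second was chr9:114327309-114327708, with ranks 2679, 412 and 1392 in stimulated and 21869, 21313 and 71155 in unstimulated libraries. A second site on the same chromosome, chr9:114406884-114408201, was also among the first 15, with ranks 1825, 5648 and 1644 in stimulated and 20997, 30189 and 57275 in unstimulated libraries. A group of 3 of the 15 lay within 1 stretch of chromosome 5, at chr5:35853215-35853711, chr5:36200726-36201266 and chr5:36566271-36566938.

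Of these 15 gained sites, 14 had a top Rad21 peak in all 7 libraries of CH12F3 cells described below. The exception was chr3:123977787-123978328, with ranks 4780, 5854 and 4848 in stimulated replicates, 106284 and 558833 in unstimulated replicates 1 and 2, and no deposited peak in unstimulated replicate 3. No CH12F3 library had a top peak there. The 15 sites were 400 to 1318 bp wide.

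The 15 strongest lost sites were 250 to 3666 bp wide, with a median of 1582 bp, and 10 of them had no top Rad21 peak in any CH12F3 library. First was chr6:143093236-143094393, with ranks 47729, 22802 and 101575 in stimulated and 3495, 1177 and 2381 in unstimulated libraries. Its fold enrichment was 3.65, 6.64 and 4.37 in the stimulated lists and 22.3, 28.5 and 12 in the unstimulated lists. Next came the 2453 bp site chr11:83546106-83548558, with ranks 45193, 21699 and 26954 in stimulated and 3411, 3022 and 4476 in unstimulated libraries. Both sites still had a deposited peak in all 3 stimulated lists.

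Other wide losses were chr6:127185778-127187566 (1789 bp), chr13:83747316-83749820 (2505 bp), chr1:130600579-130603365 (2787 bp) and chr3:19327978-19331643 (3666 bp, the widest of the 15). The last had ranks 86858, 21559 and 33014 in stimulated and 6888, 4694 and 2075 in unstimulated libraries. Only 2 of the 15, chr4:107596200-107596870 and chr15:11937149-11939005, had a top peak in all 7 CH12F3 libraries.

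CH12F3 is a mouse B lymphoma line that switches class in culture. The CH12F3NCdel cells of this series were also AID-deficient and gave 4 Rad21 libraries after 24 h with anti-CD40, IL-4 and TGF-β and 3 without stimulation. A cell type field of these samples names splenic B cells, and the title and source name were followed here. The line is already dividing, and neither its time nor its stimulus matches that of the spleen, so its values are set beside the splenic classes as a separate readout that the classes did not use.

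The 2 classes of splenic site differed in this line. A top Rad21 peak was found at 77.3 ± 1.74% of the gained sites in stimulated CH12F3 libraries (SD, n = 4) and 76.9 ± 2.59% in unstimulated ones (SD, n = 3). At lost sites the shares were 9.41 ± 1.38% in stimulated and 10.6 ± 0.982% in unstimulated CH12F3 libraries, and at shared sites 91.9 ± 0.917% and 93.1 ± 0.222%. In each of the 7 libraries the share at gained sites (74.7% to 79.8%) was above that at lost sites (7.66% to 11.7%). Stimulation of the line itself made no difference that passed the test at gained sites (difference 0.398 points, exact permutation p = 0.829) or lost sites (difference -1.2 points, exact permutation p = 0.257; the smallest possible p for 4 against 3 is 0.057). Over all sites the share was 46.1% to 47.6% in these libraries. Of the gained sites 616 (62.5%) had a top peak in all 7 CH12F3 libraries, against 37 lost sites (2.75%), while 129 gained (13.1%) and 1060 lost sites (78.9%) had one in none. Over all 36418 sites, 37.2% had a top peak in all 7 and 43.8% in none. Of the sites in none of the 3 classes, 61.8% had one in no CH12F3 library.

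The share of lost sites occupied in CH12F3 moved with the limit set on splenic peaks. Only that limit was changed, and the CH12F3 peaks stayed those used above. The limits of spleen and line were therefore unlike here, and what part this had in the shares was not tested. For the lost sites of the 10000 top peaks the share was 61.5% on average over the 7 libraries. It was 43.3% at equal covered length and 1.63% with 40000 top peaks. For gained sites it was 92.1%, 89.5% and 55.5% under the same settings, which were chosen after the data were seen, so that the order of gained above lost was kept while the size of the gap was not.

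**Figure D2:**
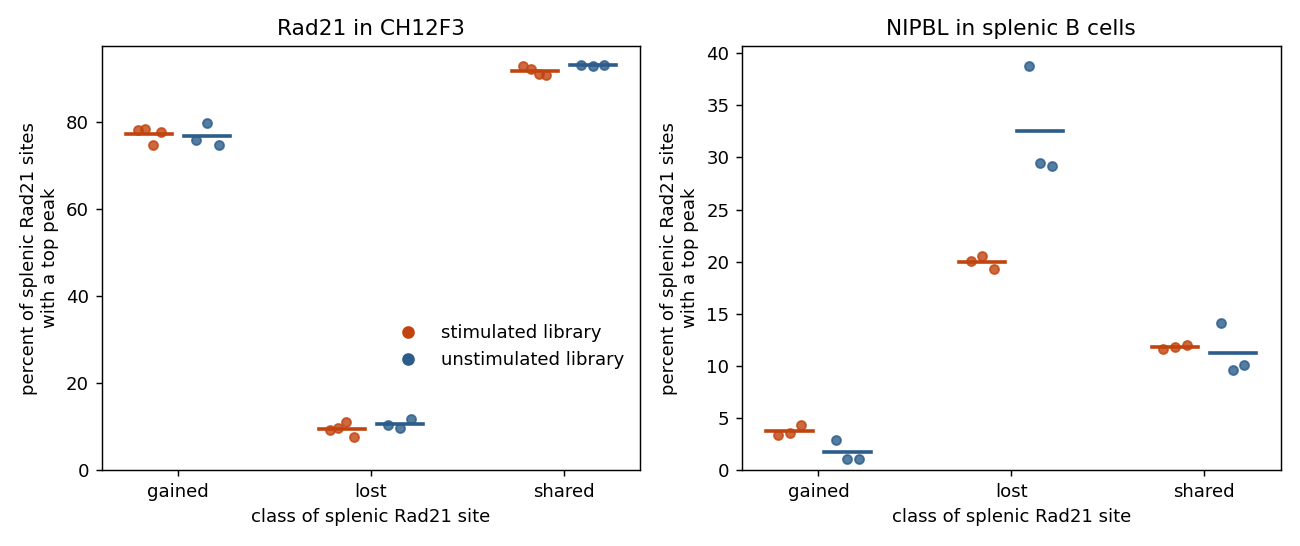
Percent of splenic Rad21 sites (y axis) that overlap 1 of the 20000 top peaks of a library, by class of site (x axis), for Rad21 in CH12F3 on the left and NIPBL in spleen on the right. Points are libraries and bars group means. Lost sites sit at 7.66% to 11.7% in CH12F3, and their NIPBL share is 19.3% to 20.5% in stimulated libraries against 29.2% to 38.8% in unstimulated ones.

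NIPBL, mapped in 3 stimulated and 3 unstimulated libraries of the same kind of splenic cells, was a further readout that the classes did not use. The names of the NIPBL peaks show no control, so whether the control differed between these groups is not known from the lists. At lost sites NIPBL had a top peak at 20.1%, 20.5% and 19.3% of sites in stimulated libraries and at 38.8%, 29.5% and 29.2% in unstimulated libraries. Every stimulated library lay below every unstimulated one, with a mean difference of -12.5 points (exact permutation p = 0.1, the smallest this design allows, and adjusted p = 0.2 over 6 tests). At gained sites NIPBL was rare on both sides, with 3.35%, 3.55% and 4.37% in stimulated and 2.94%, 1.12% and 1.12% in unstimulated libraries. The groups did not overlap there either, with a difference of 2.03 points (exact permutation p = 0.1, adjusted p = 0.2). At shared sites the means were 11.8 ± 0.171% in stimulated and 11.3 ± 2.47% in unstimulated libraries (SD, n = 3 each), and the groups overlapped. Over all sites the share was 10.3% to 10.6% in stimulated and 10.1% to 13.4% in unstimulated libraries. Any overlap counted, and lost sites were wider than gained ones, so the shares of different classes are not on 1 scale. The signs at gained and lost sites, and the separation of the groups, were the same for sites of the 10000 and 40000 top peaks and at equal covered length.

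Rad21 was then measured over regions rather than sites, as the percent of each 10 kb bin of the genome covered by the 20000 top peaks of a library. Of 22603 bins covered in 2 or more libraries, 608 fell after stimulation, 2.69% of the bins tested, and 29 rose, 0.128% of them (limma, Benjamini-Hochberg adjusted p under 0.05). The groups did not overlap at any of the called bins, which the call itself all but requires with 3 against 3 libraries; over all tested bins the stimulated libraries were all lower at 9.76% and all higher at 7.07%. The median difference at the lower bins was -14 points and ranged in size over the called bins from 5.13 to 82.2 points, while the median over all tested bins was -0.2 points. At 494 of the 608 lower bins none of the stimulated libraries had any top peak, and at 24 of the 29 higher bins none of the unstimulated ones had. Such bins could enter the test only through the group in which they were covered, so their counts are a description.

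These calls were fragile. No bin passed with 10000 or 40000 top peaks, at equal covered length, or without any 1 stimulated library, and 289 bins fell and 0 rose without unstimulated replicate 1. The balance also turned: at an unadjusted p under 0.05, 2670 bins were lower and 1387 higher with the 20000 top peaks, against 677 lower and 1199 higher at equal covered length and 107 lower and 859 higher with all deposited peaks. No direction is therefore given for the number of bins, and the called bins are given by their values in each library.

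Of the bins with the largest losses, those described first were spanned by wide peaks in the unstimulated lists. The largest loss was at chr10:96080001-96090000, which was covered to 7.12%, 0% and 24.6% in stimulated and 93.5%, 96% and 88.9% in unstimulated replicates 1 to 3 (difference -82.2 ± 12.1 points, SE; limma adjusted p = 0.0302). A single peak of 9347 and 9805 bp filled it in unstimulated replicates 1 and 2, and a peak of 8793 bp in replicate 3. In stimulated cells the bin held a 712 bp peak in replicate 1, none in replicate 2 and a 2461 bp peak in replicate 3. With all deposited peaks its coverage was 46%, 85.8% and 67.2% in stimulated and 95%, 96.9% and 89.8% in unstimulated libraries, so that the domain was still marked by weaker peaks after stimulation.

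At chr11:87560001-87570000 coverage was 0%, 0% and 4.1% in stimulated and 68.4%, 70.8% and 46.4% in unstimulated libraries (difference -60.5 points, limma adjusted p = 0.0318). The unstimulated libraries had peaks of 7007, 7131 and 5784 bp that ran past the end of the bin, and stimulated replicate 3 kept a 4463 bp peak, chr11:87569591-87574053, over the same edge. At chr17:34430001-34440000 coverage was 4.74%, 8.18% and 5.64% in stimulated and 56.9%, 72.6% and 57.3% in unstimulated libraries. By top peaks these 2 bins were at 8.18% or less in all 3 stimulated libraries and at 46.4% or more in all 3 unstimulated ones. With all deposited peaks the groups overlapped at both. Coverage at chr11:87560001-87570000 was then 43%, 88.5% and 54.3% in stimulated and 82.3%, 85.9% and 53% in unstimulated libraries. At chr17:34430001-34440000 it was 27%, 74.8% and 38.9% in stimulated and 79.2%, 76% and 59.1% in unstimulated libraries.

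On chromosome 9 a run of 3 neighbouring bins fell together, chr9:44370001-44400000. Its mean coverage was 0.423%, 0% and 1.32% in stimulated and 52.6%, 46.5% and 27.1% in unstimulated libraries, made of 5, 5 and 8 top peaks in the unstimulated lists. With all deposited peaks the groups overlapped at chr9:44370001-44380000. Coverage there was 6.88%, 60.7% and 26.8% in stimulated and 66.1%, 69.5% and 38.9% in unstimulated libraries. At chr1:156940001-156950000 coverage was 0.58%, 0% and 0% in stimulated and 43.9%, 51.7% and 40.2% in unstimulated libraries, where a pair of peaks lay in the same order in each list. All deposited peaks covered this bin to 18.2%, 49.3% and 43.3% in stimulated and 53%, 58.6% and 44.9% in unstimulated libraries, so the groups overlapped. The longest run of lower bins had 6 members, chr11:87230001-87290000, with mean coverage of 0.0917%, 0% and 0.393% in stimulated and 23.1%, 16.7% and 13.7% in unstimulated libraries. In all, 501 lower bins stood alone, and 46 runs of 2 bins, 3 runs of 3 and 1 run of 6 made up the rest.

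Other bins among the 15 with the largest losses were at 0 in all 3 stimulated libraries. These were chr17:5800001-5810000 (62.4%, 57.7% and 39.2% in unstimulated replicates), chr2:58000001-58010000 (46.5%, 67.2% and 31.4%), chr9:32420001-32430000 (54.2%, 40.5% and 41.4%), chr13:112770001-112780000 (47.7%, 57.3% and 27.9%) and chr18:49930001-49940000 (54.1%, 45.6% and 31.9%). With all deposited peaks the groups overlapped at the bins of chromosomes 17, 2 and 13 and stayed apart at those of chromosomes 9 and 18. The fourth largest loss, at chr1:85100001-85110000, had more left after stimulation, with 11.4%, 32.7% and 53.6% in stimulated and 92.3%, 95.4% and 78% in unstimulated libraries. It was also the 1 bin of the 15 that was mostly covered in CH12F3, with means of 82.7% in stimulated and 95.9% in unstimulated cells of the line.

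**Figure D3:**
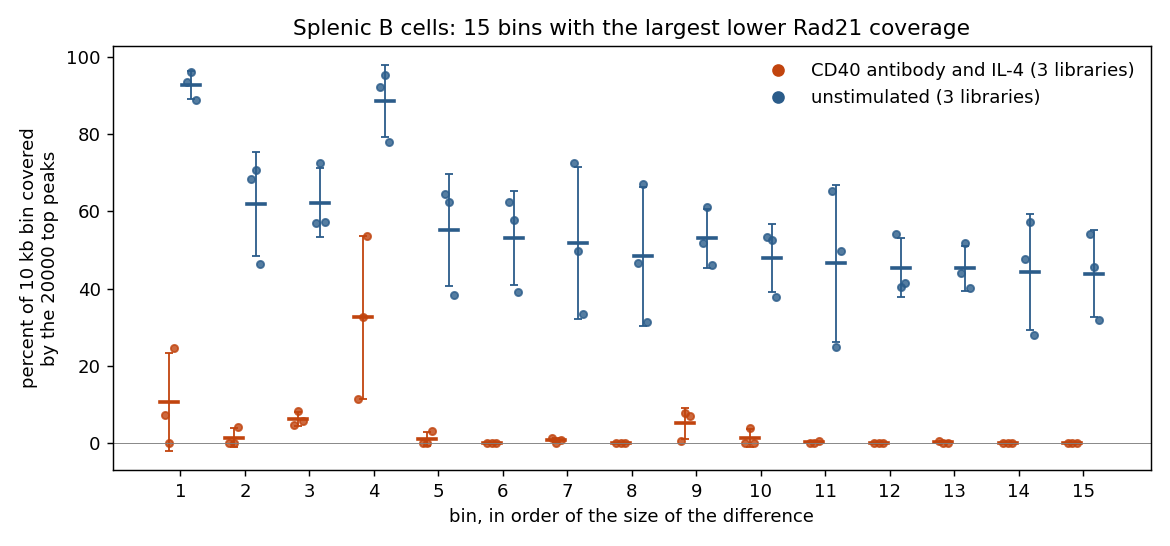
Rad21 coverage (y axis, percent of a 10 kb bin) at the 15 bins with the largest loss (x axis, in order of size), for 3 stimulated and 3 unstimulated libraries. Points are libraries, bars group means and whiskers 1 SD. At the first bin the stimulated libraries lie at 0% to 24.6% and the unstimulated ones at 88.9% to 96%.

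The median gain over the 29 higher bins was 7.58 points. The largest gain, at chr11:3070001-3080000, was covered to 80%, 85.2% and 94% in stimulated and 0%, 0% and 8.96% in unstimulated libraries (difference 83.4 ± 12.2 points, SE; limma adjusted p = 0.0302), but with 40000 top peaks its difference was -1.54 points. All deposited Rad21 peaks covered it to 91.4%, 97% and 94% in stimulated and 97.8%, 97.9% and 91.3% in unstimulated libraries. The same bin was filled to 100%, 97.6% and 100% by NIPBL top peaks in stimulated and to 85%, 54.4% and 56.9% in unstimulated spleen (not called, limma adjusted p = 0.168). In the 7 CH12F3 libraries it was either uncovered or covered to at least 97.8%, whatever the stimulation.

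The next gain was at chr13:83190001-83200000, with 16.9%, 29.1% and 25.1% in stimulated libraries and 0% in all unstimulated ones (difference 23.7 points, limma adjusted p = 0.0303). It came from 1 peak in each stimulated list, of 1688, 2910 and 2513 bp, and no CH12F3 library covered it. At chr15:97490001-97500000 coverage was 10.4%, 21.6% and 15.4% in stimulated libraries and 0% in all unstimulated ones. At chr1:172990001-173000000 it was 18.5%, 17.7% and 10.9% in stimulated libraries and 0% in all unstimulated ones. Of the 29 higher bins, 25 held a gained site, which comes from the same peaks.

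**Figure D4:**
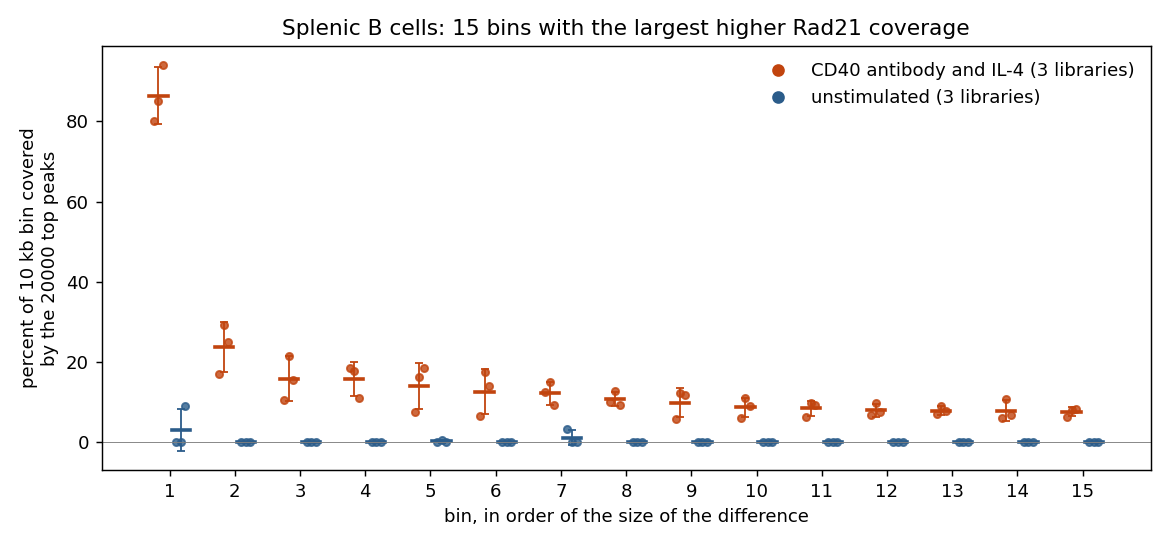
Rad21 coverage (y axis, percent of a 10 kb bin) at the 15 bins with the largest gain (x axis, in order of size), for 3 stimulated and 3 unstimulated libraries. Points are libraries, bars group means and whiskers 1 SD. Past the first bin, the unstimulated libraries lie at or near 0 and the stimulated ones at 5.68% to 29.1%.

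Coverage by all deposited peaks, which sets no limit on rank but follows list length, went the same way at most of these bins. Stimulated minus unstimulated means were below 0 at 527 of the 608 lower bins (86.7%) and above 0 at 28 of the 29 higher bins (96.6%), whereas 32% of all tested bins were below 0. The groups overlapped at most of them, however. Every stimulated library was below every unstimulated one at 32 of the 608 lower bins (5.26%), against 0.522% of all tested bins. Every stimulated library was above at 10 of the 29 higher bins (34.5%), against 2.07% of all tested bins. These are the same libraries and are no separate evidence.

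NIPBL coverage could be tested at 376 of the 608 lower Rad21 bins. Its median difference was -3.86 points there, against -0.0567 points over the 6046 Rad21 bins where NIPBL was tested. NIPBL fell at 28 of the 376 bins and rose at 1 (limma adjusted p under 0.05), that is 7.45% and 0.266% of them. Over the 6046 Rad21 bins the shares were 2.12% and 1.54%, and over all 18332 tested NIPBL bins 1.24% and 1.75%. The largest fall was at chr8:121940001-121950000, where NIPBL covered 3.55%, 8.24% and 11.8% in stimulated and 51.3%, 46% and 49.8% in unstimulated libraries (limma adjusted p = 0.0053). Rad21 at that bin was 0% in all stimulated libraries and 27.5%, 18.7% and 12.5% in unstimulated ones. NIPBL coverage was close in both groups at other bins where Rad21 fell. At chr1:156940001-156950000 it covered 21.7%, 20.9% and 20% in stimulated and 23.1%, 19.7% and 19.7% in unstimulated libraries. At chr10:13680001-13690000 Rad21 was 0%, 0% and 0.51% in stimulated and 65.2%, 24.9% and 49.6% in unstimulated libraries, whereas NIPBL was 36%, 39.6% and 38.9% in stimulated and 40.6%, 38.9% and 41.8% in unstimulated libraries. At the higher Rad21 bins NIPBL was tested in 7 and called in 0 by limma.

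In CH12F3, 487 of the 608 lower bins (80.1%) had no top Rad21 peak in either group, against 20.5% of all tested bins. The interaction of stimulation and cell type was called at 574 of the lower and 16 of the 29 higher bins (limma, adjusted p under 0.05), with 3.91% of the 27721 bins of that fit called lower in spleen and 0.7% higher. The bins were chosen by their splenic change, and where the line has no top peak the interaction equals that change, so nothing is read from these counts. The 29 higher bins had median coverage of 7.03% in stimulated and 6.96% in unstimulated CH12F3 cells, against 3.28% and 3.48% over all tested bins. Their medians in spleen, 7.58% stimulated and 0% unstimulated, come from the values by which the bins were called. No likeness of the line to either splenic group is therefore read from them.

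The immunoglobulin heavy chain locus, where class switching takes place, was followed over 40 bins of chromosome 12. The position of the locus in mm9 was taken from general knowledge and not from an annotation, and which bin holds which constant-region gene was not worked out. With the 20000 top peaks 16 bins were covered, 6 of them in all 6 libraries, and the groups overlapped at every one. The most covered was chr12:114450001-114460000, with 21.1%, 47.2% and 30.5% in stimulated and 49.3%, 48.5% and 25.2% in unstimulated libraries (exact permutation p = 0.5). Beside it, chr12:114460001-114470000 had 20.6%, 33.7% and 21.8% in stimulated and 35.3%, 37.4% and 21.7% in unstimulated libraries (exact permutation p = 0.3).

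With all deposited peaks, 3 bins of the locus were higher in every stimulated library than in any unstimulated one, a pattern seen at 1.05% of all covered bins of the genome, and none was lower throughout, a pattern seen at 0.102%. At chr12:114570001-114580000 coverage was 26.5%, 49.6% and 34.2% in stimulated and 0%, 2.04% and 0% in unstimulated libraries. At chr12:114560001-114570000 it was 10.2%, 68.1% and 51.1% in stimulated and 0%, 3.71% and 0% in unstimulated libraries. At chr12:114510001-114520000 it was 5.28%, 38% and 24.2% in stimulated and 0%, 2.04% and 0% in unstimulated libraries. Coverage by all deposited peaks follows list length, whose part in these values was not tested. Each had an exact permutation p of 0.1, the smallest this design allows, and an adjusted p of 0.9 over 39 bins. NIPBL top peaks covered chr12:114570001-114580000 to 41.7%, 49.8% and 24.5% in stimulated libraries and to 0% in all 3 unstimulated ones. They covered chr12:114560001-114570000 to 20.2%, 5.63% and 15.9% in stimulated libraries and to 0% in all 3 unstimulated ones, and chr12:114510001-114520000 to 0% in all 6. No CH12F3 library had a top Rad21 peak in any of the 3 bins. With 40000 top peaks none of the 3 stood apart. There chr12:114660001-114670000 was lower throughout, at 1.49%, 0% and 0% in stimulated and 34.8%, 25.3% and 13.7% in unstimulated libraries. Its difference was -24.1 points (exact permutation p = 0.1, adjusted p = 0.96). With 10000 top peaks chr12:114420001-114430000 was higher throughout, by 3.59 points (exact permutation p = 0.1, adjusted p = 0.9).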

How the data were processed

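Peak lists of Rad21 (6 splenic and 7 CH12F3 libraries) and NIPBL (6 splenic libraries) were used, 1 list per library; the 3 Rad21 lists of i3CBEs entered only the alternative fit of all Rad21 groups. Per the submitters' processing notes, the tools were Bowtie2 and MACS2 and the build was mm9; their versions are not stated. The authors deposited a score for each peak, with its fold enrichment (a ratio) and the -log10 of its p-value and of its q-value. These served to order and select peaks inside 1 list and were not compared between lists. No read counts are in the lists, so depth is unknown and no counting intervals are given.

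On the 21 main chromosomes, the 20000 peaks of highest -log10 p in a list were kept. Sites are their union over the 6 libraries, and an overlap of 1 bp counted. Coverage was computed in 264200 bins of 10 kb. Those covered in 2 or more libraries were tested with limma 3.58.1 in R 4.3.3 (mean-variance trend, Benjamini-Hochberg adjustment). The same fit was also run on simulated data, and its outcome is not given here. Single values were compared by exact permutation tests (Python 3.11.15). Named in each direction were the 15 called bins of largest difference whose groups did not overlap, and the 15 gained or lost sites with the best weakest rank; the bins called for both proteins, the runs of bins and the bins of like NIPBL coverage were chosen after their values were seen. Members, lists and tests were chosen with earlier results of these data known. Gene lists and cell type markers were not analysed here, since neither an annotation nor a genome of mm9 was used; no coordinates were converted between builds, and no sequences are printed. The 5 input samples and the CH12F3 NIPBL lists were not analysed here.

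Replicate numbers recur in both groups. Same-numbered libraries had deviations from their group means that correlated at -0.119, 0.0267 and 0.00698, so the numbers were not taken as pairs.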

Additional observations from a re-analysis of the deposited data

Results flagged for a closer look

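The interaction of stimulation and cell type, spleen against CH12F3, was called at 14 of the 15 bins with the largest losses and 10 of the 15 with the largest gains (limma interaction, adjusted p under 0.05). These bins were picked for their splenic change, and where CH12F3 had no top peak the value equals that change, so the calls are no separate evidence of a difference between the cells. The stimuli and times differ too. The losses, as the splenic change minus the CH12F3 change in percent points, were -77.5 at chr10:96080001, -60.5 at chr11:87560001, -56.1 at chr17:34430001, -54 at chr9:44370001, -53.1 at chr17:5800001, -51.2 at chr9:44380001, -48.4 at chr2:58000001, -45.1 at chr13:112790001, -46.6 at chr2:58010001, -46.4 at chr10:13680001, -45.4 at chr9:32420001, -45.1 at chr1:156940001, -44.3 at chr13:112770001 and -43.9 at chr18:49930001. The gains were 23.7 at chr13:83190001, 17.1 at chr15:97490001, 13.9 at chr1:185830001, 13.5 at chr11:50580001, 10.4 at chr8:120290001, 8.33 at chr9:114320001, 8.03 at chr2:122120001, 7.96 at chr15:85410001, 7.6 at chr6:91360001 and 7.74 at chr13:56380001.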

How the results depend on the processing

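The bin calls depended on the settings, and the causes were not tested. Beside 608 lower and 29 higher bins, 0 and 0 were called with 10000 or 40000 top peaks, at equal covered length, with -log10 q of 5 or more, over merged sites and with a term for lists of over 1000000 peaks. At an unadjusted p under 0.05 the lower and higher counts were 1253 and 890 with 10000 top peaks, 4145 and 1224 with 40000, 677 and 1199 at equal covered length, 2490 and 101 with the q limit, 2260 and 1464 over merged sites, 2750 and 1022 with the list term and 107 and 859 with all deposited peaks. They were 1649 and 2065 without stimulated replicate 1, 2275 and 1210 without replicate 2 and 1633 and 1823 without replicate 3, so the balance turned under 4 of these settings. All deposited peaks gave 6 lower and 0 higher, bins covered in 3 or more libraries 1274 and 565, array weights 2896 and 1040, and a fit of all Rad21 groups 2738 and 1122. Leaving out 1 library gave 0 to 1759 lower bins and 0 to 47 higher bins: 0 of either without any stimulated library, and 1759 lower without unstimulated replicate 3. The replicate block gave 896 lower and 43 higher bins; the numbers were not taken as pairs. Of 446 refits of the 30 named bins, 157 kept the call, 286 lost it and 3 reversed, all at chr11:3070001-3080000, to -1.54 points with 40000 top peaks and with all deposited peaks and -1.57 with -log10 q of 5 or more.

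Gained and lost sites numbered 615 and 503 with 10000 top peaks, 812 and 2128 with 40000, 642 and 102 at equal covered length, 7 and 0 where absence from all deposited peaks was asked, and 230 and 345 where absence from the 40000 top peaks was asked. Leaving out 1 library gave 1102 to 1694 gained and 1477 to 2002 lost sites. In the heavy chain region, where 0 bins stood apart, 10000 top peaks gave 1 higher, 40000 gave 1 lower and all deposited peaks gave 3 higher. The difference in covered length was -2.59 Mb for the 20000 top peaks and 32.2 Mb for all deposited peaks (exact permutation p = 0.5 and 0.8). Of the lower Rad21 bins, 28 were called lower for NIPBL, 45 with 10000 top peaks, 15 with 40000, and 18 to 43 without 1 NIPBL library.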
